A study of Mus musculus with 2 samples.

Results

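The 4 Hox clusters of the mouse genome were examined in a map of 5-hydroxymethylcytosine (5hmC), the base that TET enzymes make by oxidising 5-methylcytosine. The clusters were taken as fixed stretches of the mm9 assembly. HoxA was the 115 kb of chromosome 6 that begin at 52100001, and HoxB the 120 kb of chromosome 11 that begin at 96115001. HoxC was the 125 kb of chromosome 15 from 102745001 on, and HoxD the 118 kb of chromosome 2 from 74490001 on. No measured value entered these coordinates, but the clusters were chosen with earlier results of these data known. Together they held 5878 of the 13025343 cytosines listed in the deposited table (0.0451%) and 67284 reads (0.0382%). The 37 genes named as members are Hoxa2, Hoxa3, Hoxa4, Hoxa5, Hoxa6, Hoxa7, Hoxa9, Hoxa10, Hoxa11 and Hoxa13, then Hoxb1 to Hoxb9, then Hoxc4, Hoxc5, Hoxc6 and Hoxc8 to Hoxc13, and Hoxd1, Hoxd3, Hoxd4 and Hoxd8 to Hoxd13.

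The DNA came from mouse embryonic stem cells of the established line E14 at passage 12 and without any treatment named in the labels. The 2 libraries form 1 group, and the labels do not tell if their DNA came from different cultures. The assay adds glucose to 5hmC and cuts beside the modified base with the endonuclease AbaSI, so that each sequenced end points to a nearby cytosine. The table gives 1 read count per cytosine for both libraries together, with no condition to compare and no replicate error. All intervals below therefore cover counting error only. Since PCR copies carry no molecular identifier, reads may repeat 1 molecule, and even that error is a lower limit. A position missing from the table cannot be read as 0, because the minimum for listing is not stated and no listed count was below 2.

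Hox genes encode homeodomain transcription factors that give cells their position along the body axis. They lie side by side in clusters, in an order that matches the order in which they act along the axis, with the low-numbered genes acting towards the head and the high-numbered genes towards the tail. In embryonic stem cells the clusters are a textbook target of Polycomb repression and most of their genes are silent. They are also rich in CpG islands and poor in mobile elements. CG cytosines are the main substrate of DNA methylation and hence of 5hmC.

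No genome sequence of mm9 was used, so a start site could be put on the map only where the listed cytosines themselves fixed it. Promoter sequences of RefSeq (assembly GRCm38.p6), each running from 250 bases before to 50 bases after a start site, matched 22 of the 37 members by symbol, with 24 promoters. The other 15 members had no entry. The letters of each promoter were slid along its own cluster. A promoter was placed where at least 6 listed CG dyads fell inside it, every listed cytosine matched its letters, and no other offset had as many. A dyad is 1 CG with its 2 strands. This placed 4 promoters, those of Hoxa3, Hoxa7, Hoxb1 and Hoxd12. The next best offset held 3, 2, 2 and 3 dyads, against 7, 7, 7 and 8. A looser rule, chosen after the values were seen (at least 5 dyads and no other offset with over 0.5 times as many), added Hoxa10 and Hoxc4. The 18 other promoters could not be placed. A promoter with few listed cytosines cannot be placed in this way, so the placed ones do not stand for the rest.

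The 250 bases before each placed start site are shown 5′ to 3′ because they carry the measurement base by base. Capitals mark each CG with a listed cytosine on either strand, and a CG in lower case has no line in the table.
Hoxa3, mm9 chr6:52163067-52163316, minus strand: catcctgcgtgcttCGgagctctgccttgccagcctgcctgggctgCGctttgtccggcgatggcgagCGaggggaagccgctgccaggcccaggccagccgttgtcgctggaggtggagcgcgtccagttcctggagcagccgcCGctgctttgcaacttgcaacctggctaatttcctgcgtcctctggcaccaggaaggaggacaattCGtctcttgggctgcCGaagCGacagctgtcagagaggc
Hoxa7, mm9 chr6:52168573-52168822, minus strand: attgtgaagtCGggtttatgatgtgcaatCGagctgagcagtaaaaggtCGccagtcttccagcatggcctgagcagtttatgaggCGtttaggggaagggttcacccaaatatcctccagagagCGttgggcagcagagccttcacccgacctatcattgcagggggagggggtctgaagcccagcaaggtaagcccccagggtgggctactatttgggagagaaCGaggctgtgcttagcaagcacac
Hoxb1, mm9 chr11:96226822-96227071, plus strand: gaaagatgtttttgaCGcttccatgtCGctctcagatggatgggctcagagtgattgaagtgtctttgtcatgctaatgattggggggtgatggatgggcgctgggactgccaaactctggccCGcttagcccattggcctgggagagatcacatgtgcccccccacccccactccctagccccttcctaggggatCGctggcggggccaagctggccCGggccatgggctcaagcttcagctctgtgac
Hoxd12, mm9 chr2:74512820-74513069, plus strand: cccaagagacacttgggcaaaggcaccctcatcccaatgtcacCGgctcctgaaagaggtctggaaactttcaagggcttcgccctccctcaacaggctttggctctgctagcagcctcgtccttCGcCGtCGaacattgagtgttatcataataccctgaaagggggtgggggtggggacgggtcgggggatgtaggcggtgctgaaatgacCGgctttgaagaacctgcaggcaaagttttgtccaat
Hoxa10, mm9 chr6:52190854-52191103, minus strand: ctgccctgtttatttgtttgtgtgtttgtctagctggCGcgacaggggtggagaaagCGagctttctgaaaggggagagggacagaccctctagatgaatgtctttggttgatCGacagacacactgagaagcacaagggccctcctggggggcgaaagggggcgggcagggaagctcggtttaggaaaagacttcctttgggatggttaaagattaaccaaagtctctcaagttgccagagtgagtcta
Hoxc4, mm9 chr15:102864576-102864825, plus strand: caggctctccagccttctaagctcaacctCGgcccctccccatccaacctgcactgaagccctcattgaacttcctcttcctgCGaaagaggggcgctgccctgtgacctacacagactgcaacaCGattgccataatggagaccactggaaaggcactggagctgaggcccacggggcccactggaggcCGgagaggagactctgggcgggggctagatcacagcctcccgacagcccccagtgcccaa
In the Hoxa7 and Hoxb1 stretches most CG letters are capitals, and in the Hoxa3 and Hoxa10 stretches most are not. The placing rule sets a floor to the number of listed dyads, which weighs most where CG are few.

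At the promoter of Hoxa7, a gene of the trunk, 7 of the 9 CG dyads in the 300-base window were listed, with 84 reads and a median of 13 reads per dyad. At Hoxb1, which acts in the hindbrain, 7 of 10 were listed, with 158 reads and a median of 27 reads per dyad, and 5 of the 7 had a line on both strands. At Hoxd12, a gene of the distal limb, 8 of 13 were listed, but with 57 reads and a median of 6.5. The placed promoter of Hoxa3, a gene needed for the thymus and parathyroid, had the most CG letters of the placed ones. Its listed share was the lowest, 7 of 20 with 58 reads. Placing required at least 6 listed dyads, or 5 by the looser rule. A promoter with few CG could thus be placed only with a high listed share, so these shares cannot be compared on equal terms. Its start site, 52163066, lay near that of Hoxa7, 52168572, although Hoxa4, Hoxa5 and Hoxa6 come between them in the RefSeq gene order. Whether most Hoxa3 transcripts begin there was not tested. Hoxc4 had 5 of 9 with 84 reads. The placed one of the 2 promoters of Hoxa10, a gene of the lower trunk, had 5 of 12 with 15 reads, and none of its 5 dyads had both strands. The median over all dyads was 10 reads in HoxA, HoxC and HoxD and 13 in HoxB. Hoxa7, Hoxb1 and Hoxc4 (median 15) thus lay above their cluster's median, and Hoxa3 (median 9), Hoxa10 (median 3) and Hoxd12 below it. The 24 promoters of members held 4 to 45 CG dinucleotides with a median of 14.5, against a median of 7 over all 32851 promoters in the same table. At least 20 were present in 11 of the 24, or 45.8%, and in 26.5% of all promoters.

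The counts also differed between the sides of a start site. Downstream of the Hoxd12 start site, the first 1000 bases held 40 listed dyads with 622 reads, and the 1000 bases upstream held 22 with 446. At Hoxb1 the downstream 1000 bases held 33 dyads with 489 reads and the upstream 1000 bases 13 with 307. The placed Hoxa3 start site had 20 dyads with 333 reads downstream and 17 with 148 upstream. At Hoxa7 the order was the other way, with 11 dyads and 130 reads downstream and 17 and 307 upstream. Hoxa10 had 11 dyads with 64 reads downstream and 12 with 161 upstream, and Hoxc4 had 8 with 73 and 7 with 120. The 3 richest of these windows by number of dyads were thus the downstream sides of Hoxd12 and Hoxb1 and the upstream side of Hoxd12.

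The first comparison set each cluster beside 500 kb on each side. Every cluster had more listed CG dyads per kb than its flanks. HoxA had 8.97 dyads per kb against 5.83, a ratio of 1.54 (95% exact interval 1.44 to 1.64). HoxC had 7.31 against 4.715, a ratio of 1.55 (1.44 to 1.67). In HoxD the ratio was the highest of the 4 at 1.8 (1.67 to 1.93), with 8.28 against 4.61 dyads per kb. HoxB had the most dyads, 11.35 per kb, but its flanks on chromosome 11 had 9.175, which left a ratio of 1.24 (1.17 to 1.31). The number of CG in each stretch of mm9 was not used here, so these are counts per length and not rates per CG. For HoxB the ratio was 0.95 when at least 10 reads were required per cytosine.

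Stretches without any listed cytosine were rare in the clusters. Of the 478 bins of 1 kb, 14 had no listed cytosine, which is 2.93%, against 7.10% in the 4000 flank bins and 27.3% in all autosomal bins. By cluster there were 4 of 115 in HoxA (3.48%, exact interval 0.956 to 8.67), 2 of 120 in HoxB (1.67%, 0.202 to 5.89), 6 of 125 in HoxC (4.80%, 1.78 to 10.2) and 2 of 118 in HoxD (1.69%, 0.206 to 5.99). The flanks of HoxD had 11.4% such bins, above the interval of the cluster. For HoxA (5.4% in the flanks), HoxB (1.6%) and HoxC (10%) the flank value lay inside the cluster's interval. Bins with 10 or more listed dyads made up 185 of the 478 (38.7%), against 20.7% of the flank bins and 10.8% of autosomal bins. They were 44 in HoxA, 67 in HoxB, 37 in HoxC and 37 in HoxD. The longest distance between neighbouring listed CG cytosines was 2772 bases in HoxA, 2648 in HoxB, 2154 in HoxC and 1511 in HoxD. The lower-coordinate and upper flanks, each longer than a cluster, had longest distances of 3648 and 4572 bases around HoxA, 6177 and 2300 around HoxB, 8189 and 8009 around HoxC, and 8951 and 7445 around HoxD. The upper flank of HoxB was the 1 flank whose longest distance was shorter than that of its cluster.

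**Figure D1:**
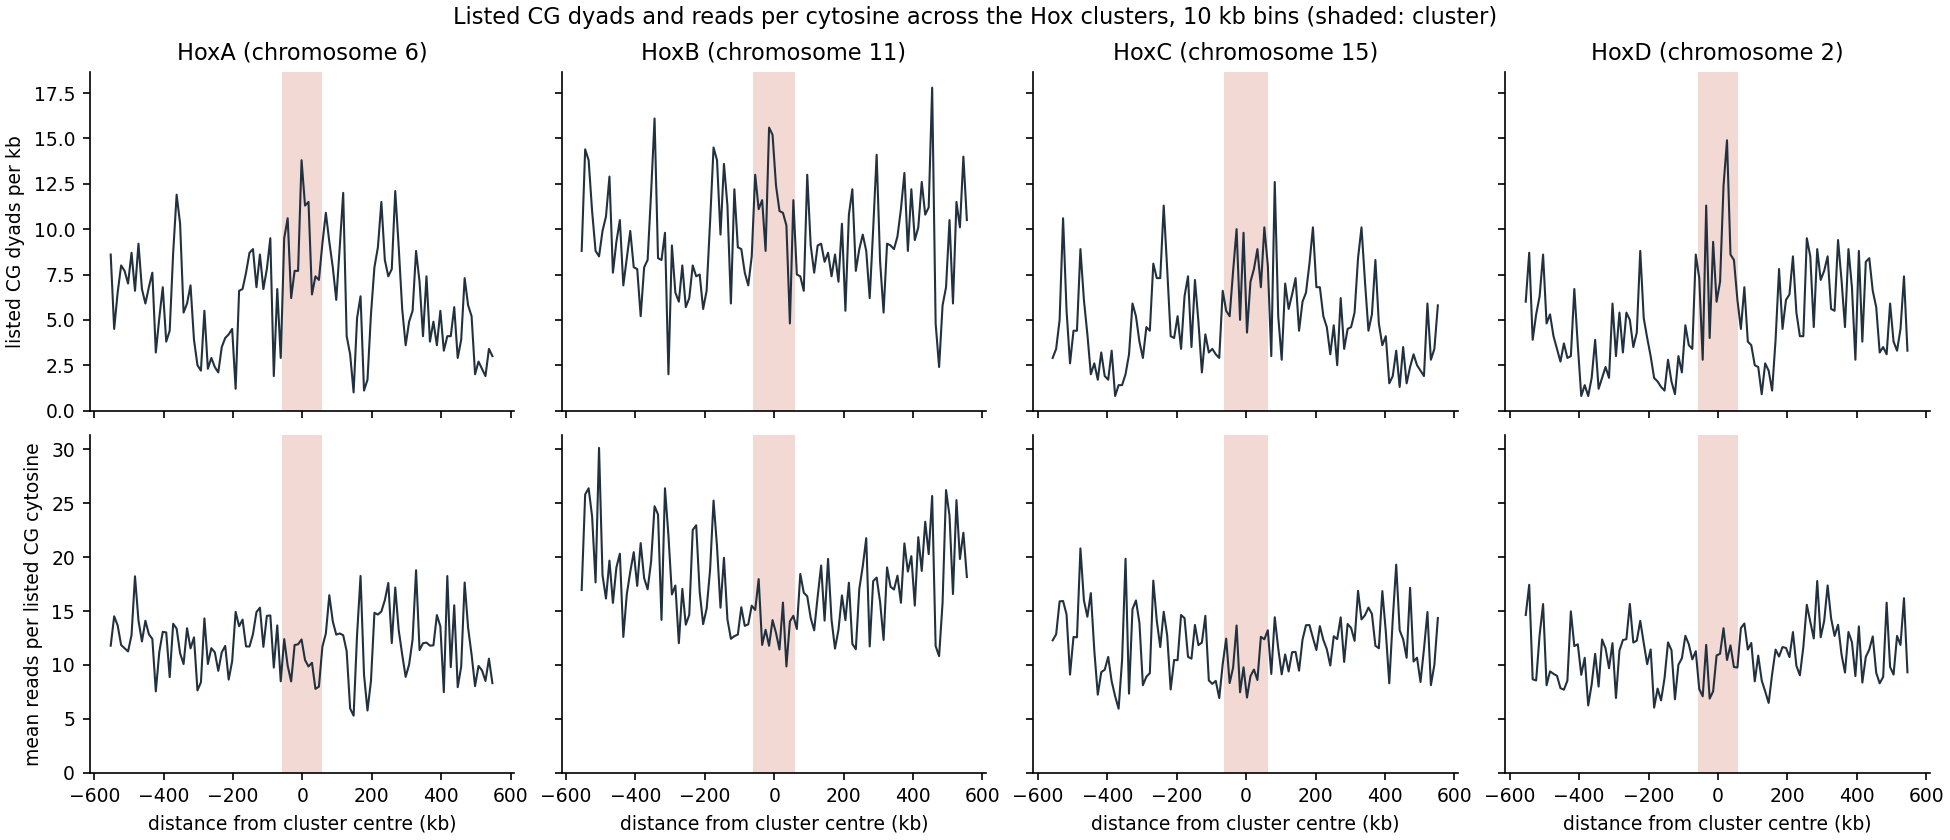
Listed CG dyads per kb (upper row) and mean reads per listed CG cytosine (lower row) in 10 kb bins, against the distance from the centre of each cluster in kb, with the cluster shaded. Dyads per kb are high within the shaded stretch (8.97 in HoxA, 8.28 in HoxD), while reads per cytosine there are at or below the level around it (10.6 and 10.5).

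Reads did not follow the number of sites. On average, a listed CG cytosine of a Hox cluster carried fewer reads than one in its flanks. Over all autosomes the median was 10 reads per listed CG cytosine, with a mean of 13.8. The mean per listed CG cytosine was 10.6 reads in HoxA against 13 in its flanks, 13.6 against 18.7 in HoxB, 10.5 against 13 in HoxC and 10.5 against 12.3 in HoxD. The medians were 8 against 10, 10 against 14, 8 against 10 and 8 against 9, with quartiles of 5 and 14 reads in HoxA and of 6 and 16 in its flanks. Reads per kb were therefore less raised than sites. HoxA had 128 reads per kb against 107, a ratio of 1.20 (1.17 to 1.22), HoxC 101 against 85.9, a ratio of 1.18 (1.15 to 1.20), and HoxD 115 against 78.3, a ratio of 1.48 (1.45 to 1.5). HoxB had 219 reads per kb against 264, a ratio of 0.832 (0.821 to 0.842), and was the 1 cluster with fewer reads per kb than its flanks. That ratio was 1.02 with flanks of 250 kb, so its side of 1 depends on how far the flanks reach. In rings around HoxB the reads per kb were 190 within 50 kb of it, 221 from 50 to 250 kb and 312 from 250 to 500 kb. The value of HoxB itself thus lay between those of the inner rings and below the outermost one. The ring within 50 kb of HoxA had 138 reads per kb, above the 128 of HoxA itself. For HoxA, too, the side of 1 thus depends on how far the comparison reaches. Within 50 kb of HoxC and HoxD the values were 81.2 and 71.7, below those of the clusters. In HoxD the ratio was 1.97 against the lower-coordinate flank alone and 1.18 against the other.

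HoxB lies on a chromosome with many reads per kb (152, against 57.2 to 86.1 on the others), and each cluster was therefore also set beside all windows of its own length on its own chromosome. By dyads per kb HoxA stood above 98.0% of the 1275 windows of chromosome 6, HoxB above 95.9% of 991 on chromosome 11, HoxC above 83.3% of 804 on chromosome 15 and HoxD above 92.7% of 1516 on chromosome 2. By reads per kb the same shares were 86.2%, 72.3%, 71.9% and 77.2%. By mean reads per listed CG cytosine, over windows with at least 50 dyads, the clusters stood above only 46.7%, 37.3%, 46.0% and 40.8%. HoxB had 219 reads per kb against a median window of 128 on chromosome 11, and HoxA 128 against 34.3 on chromosome 6. All 4 clusters thus ranked high by sites, lower by reads and in the middle or below by reads per site.

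Windows with many listed dyads also had many reads at each, and the Hox clusters lay below them. On chromosome 6, 26 windows that do not overlap HoxA had at least its number of dyads per kb, and 0 of the 26 had a lower mean than its 10.6 reads per CG cytosine. Their lowest value was 14.4 and their median 15.6, against a median of 10.8 over all windows of that chromosome with at least 50 dyads. On chromosome 11 this held for 0 of 41 windows, with a lowest value of 17.0 and a median of 21.3 against 13.6 in HoxB. On chromosome 15 it held for 0 of 133, with a lowest value of 11.9 and a median of 15 against 10.5 in HoxC. On chromosome 2 it held for 0 of 111, with a lowest value of 12.4 and a median of 15.2 against 10.5 in HoxD. The choice of windows at least as dense was made after these values were seen, and windows are not replicates, so no p-value is given. What sets the reads per cytosine in the clusters was not tested.

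**Figure D2:**
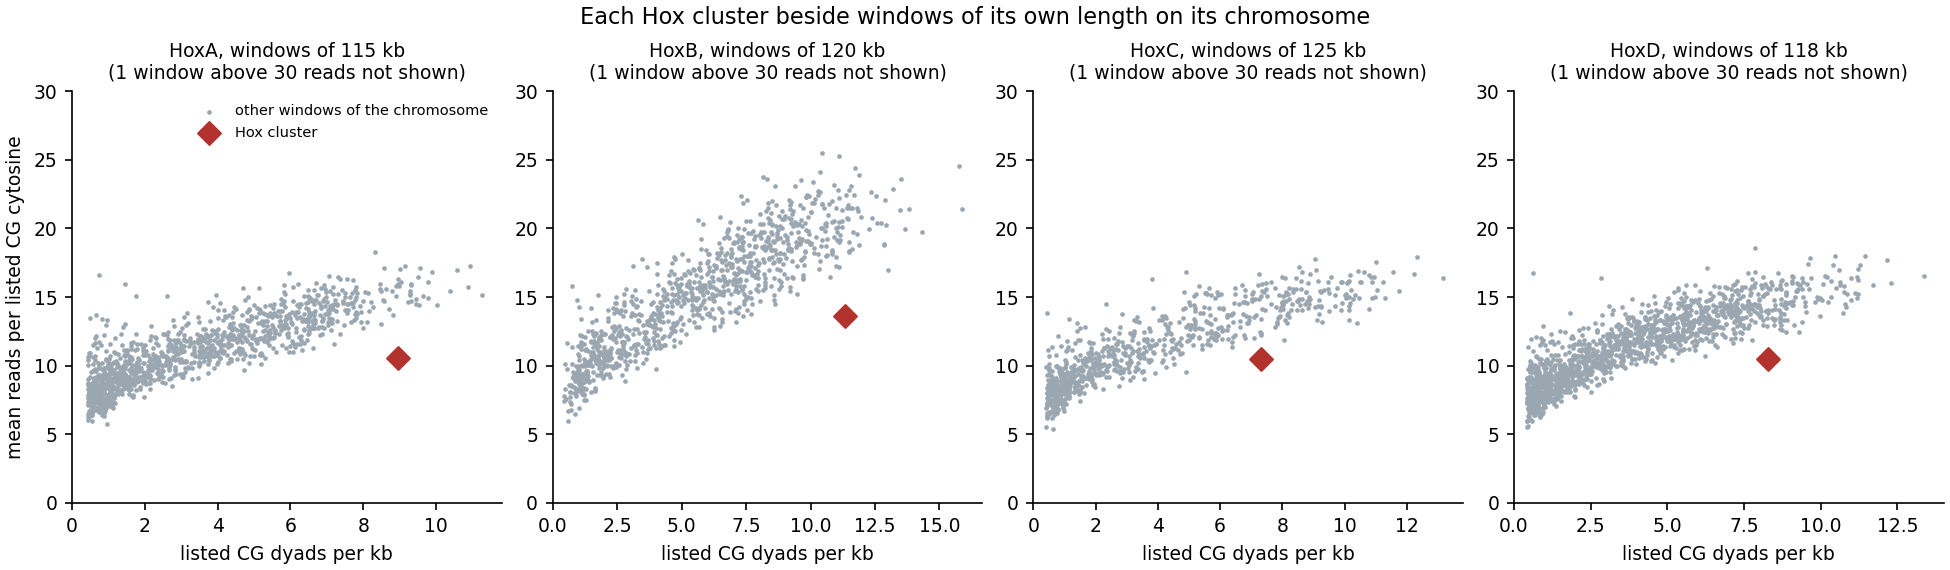
Mean reads per listed CG cytosine against listed CG dyads per kb in windows of each cluster's own length on its chromosome (grey points, windows with at least 50 dyads and no overlap with the cluster), with the cluster as a red diamond. The grey points climb from left to right and the clusters lie below those at least as dense, at 10.6, 13.6, 10.5 and 10.5 reads.

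The same contrast was seen bin by bin. In the flanks of HoxA, HoxB and HoxD, bins of 1 kb with more listed dyads had more reads at each listed CG cytosine. The flanks of HoxC followed this up to 19 dyads, with 10.2, 13.2 and 15 reads, and then had 13.5 in the 17 bins with 20 or more. Around HoxD the mean was 9.50 reads in bins with 1 to 4 dyads, 12.0 in those with 5 to 9, 14.2 in those with 10 to 19 and 15.4 in those with 20 or more, the last resting on 6 bins. Inside HoxD the means were 9.30, 9.50, 11 and 11.3. Around HoxB they ran from 13.7 through 16.7 and 19.7 to 20.8, and inside it from 14.7 through 16.1 and 12.9 to 13.2. Over all 16 pairs of values the cluster was below its flanks in 13. The 8 pairs with 5 to 19 dyads per bin were all among these. That range was not set in advance and leaves out the groups that hold the exceptions, so it adds no separate support. The exceptions were bins with 1 to 4 dyads in HoxA (11.7 against 10.5) and HoxB, and bins with 20 or more in HoxC (14.1 against 13.5), where the cluster had 5 bins. Of the 25 such bins in HoxA with 1 to 4 dyads, 1 bin held 248 reads on 4 CG cytosines and raised their mean.

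**Figure D3:**
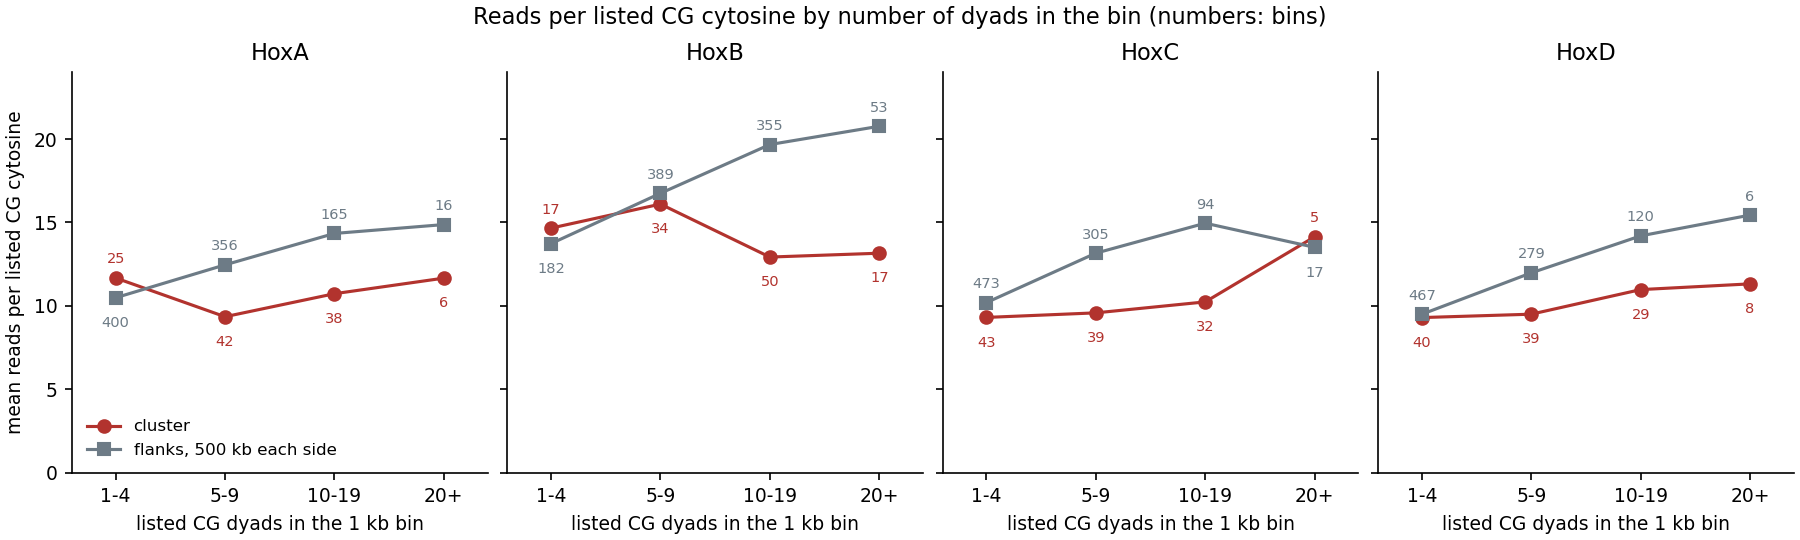
Mean reads per listed CG cytosine in 1 kb bins grouped by their number of listed CG dyads, for each cluster (red circles) and its flanks of 500 kb on each side (grey squares), with the number of bins beside each point. The flanks lie above the cluster at 5 to 9 and 10 to 19 dyads in every panel.

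Sites of the class 2CG showed the widest gap in reads. The authors' table gives each cytosine a class code, and no source used here explains the codes. In the clusters 89.4% of the plus-strand 2CG cytosines had a minus-strand 2CG cytosine 21 to 25 bp to the right, and in 88.1% of these pairs both cytosines had the same count. The flanks were alike in this, with 86.4% and 88.0%. Both cytosines of such a pair entered the counts of sites and reads. The class made up 16.4% of the listed CG cytosines in HoxA against 7.85% in its flanks, 15% against 7.0% in HoxB, 13.8% against 7.98% in HoxC and 13.5% against 8.47% in HoxD. In the flanks such sites had by far the most reads. In the clusters their mean was still the highest of these classes, but nearer to the others. The mean was 11.5 reads per 2CG site in HoxA against 26.5 in its flanks, 15.4 against 33.1 in HoxB, 13.3 against 22.4 in HoxC and 12.4 against 24.1 in HoxD. For the class 1CG the gap was smaller than for 2CG in each cluster, with 9.50 against 10.8 reads in HoxA, 12.1 against 15.8 in HoxB, 9.37 against 11.3 in HoxC and 9.43 against 10.1 in HoxD. The class CGCH, which held the most sites, had 11 against 12.7 reads in HoxA, 14.2 against 18.9 in HoxB, 10.4 against 12.7 in HoxC and 10.7 against 12 in HoxD. With 2CG and 2CH sites left out, the mean over the remaining CG sites was still below the flanks in all 4 clusters, at 10.4 against 11.9 reads in HoxA and 10.2 against 11.2 in HoxD.

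A CG is symmetric, and both of its strands can carry the mark. In HoxA 330 of 1031 listed dyads had a line on both strands, which is 32.0% (exact interval 29.2 to 35.0), against 39.3% in the flanks. In HoxB the share was 40.3% (37.7 to 43.0) against 51.9%, and in HoxC 30.7% (27.8 to 33.8) against 38.0%. In HoxD it was 32.1% (29.2 to 35.2) against 35.0%, a difference within the cluster's interval. Of windows at least as dense in dyads on the same chromosome, 0 of 26, 0 of 41, 0 of 133 and 1 of 111 had a lower share than HoxA, HoxB, HoxC and HoxD, a choice of windows again made after the values were seen. Among all windows with at least 50 dyads, the clusters stood above 63.2%, 41.9%, 59.4% and 55.6% by this share, so that HoxA, HoxC and HoxD were above the median window (26.7%, 26.3% and 29.5%) and HoxB was below it (43.5%). The HoxD share was also above the 31.0% of its lower-coordinate flank and below the 37.8% of the other. Reads per cytosine were lower in the clusters as well, and their part in the share with both strands was not tested. Among dyads with both strands, counts differed by more than 3-fold in 18.5% in HoxA, 20.9% in HoxB, 19.6% in HoxC and 17.5% in HoxD, against 21.7%, 23.5%, 21.8% and 21.6% in the flanks.

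Cytosines outside CG were few in the clusters. They numbered 34 in HoxA, or 2.44% of its listed cytosines (1.69 to 3.39), 51 in HoxB, or 2.60% (1.94 to 3.4), 23 in HoxC, or 1.89% (1.20 to 2.82), and 12 in HoxD, or 0.921% (0.477 to 1.60). Flanks had 2.90%, 4.29%, 3.8% and 4.10%, and the autosomes as a whole 5.99%. The flank value lay inside the interval for HoxA and above it for the other clusters. HoxD had the lowest share of the 4.

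Within the clusters the sites were not evenly spread. The order of the members along each chromosome was taken from the RefSeq gene table (GRCm38.p6), with no coordinate of that assembly used. In that order Hoxa2 is the member nearest the lower-coordinate end of HoxA and Hoxa13 the highest, while HoxB runs from Hoxb9 to Hoxb1, HoxC from Hoxc13 to Hoxc4 and HoxD from Hoxd13 to Hoxd1. When each cluster was divided into 3 stretches of about equal length, the stretch at the Hoxa13 end had 79.6 reads per kb, against 174 in the middle and 129 at the Hoxa2 end. In HoxD the stretch at the Hoxd13 end had 79.0 reads per kb, against 128 in the middle and 139 at the Hoxd1 end. HoxC was lowest in the middle, with 74.2 reads per kb between 104 at the Hoxc13 end and 124 at the Hoxc4 end. In HoxB the stretches were closer, with 233 reads per kb at the Hoxb9 end, 237 in the middle and 189 at the Hoxb1 end. The share of dyads on both strands was 23.4% (18.5 to 28.9) in the stretch at the Hoxa13 end, below the 35.2% (30.1 to 40.6) at the Hoxa2 end, and their intervals did not overlap. In HoxD it was 27.4% (22.0 to 33.4) at the Hoxd13 end and 34.4% (29.6 to 39.4) at the Hoxd1 end, with overlapping intervals. In HoxB and HoxC the middle stretch had the lowest share. HoxB had 36.9% there, against 40.9% at the Hoxb9 end and 44.5% at the Hoxb1 end. HoxC had 25.6% there, against 31.8% at the Hoxc13 end and 33.9% at the Hoxc4 end. The Hoxa13 end also had a lower mean per listed CG cytosine, 8.72 reads against 11.4 in the middle and 10.8 at the Hoxa2 end.

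The 1 kb bins with the most reads were spread over each cluster. In HoxD the first was chromosome 2 from 74513001 to 74514000, with 601 reads on 39 dyads, and it contained the Hoxd12 start site at 74513070. The next were 74564001 to 74565000 with 532 reads and 74561001 to 74562000 with 491. The HoxA bin that ranked first, chromosome 6 from 52170001 to 52171000, had 545 reads on 30 dyads and lay 1429 to 2428 bases upstream of the placed Hoxa7 start site. It was followed by 52159001 to 52160000 with 517 reads and 52130001 to 52131000 with 467. In HoxB the bin of chromosome 11 from 96125001 to 96126000 had 1311 reads on 34 dyads, the most of any bin in the 4 clusters. It lay near the Hoxb9 end, and 96116001 to 96117000 with 817 reads and 96163001 to 96164000 with 720 came next. HoxC had its highest bin on chromosome 15 from 102857001 to 102858000 with 665 reads on 25 dyads, 6826 to 7825 bases upstream of the Hoxc4 start site placed by the looser rule. The others were 102748001 to 102749000 with 562 reads and 102780001 to 102781000 with 487. The median bin had 88 reads in HoxA, 178 in HoxB, 63 in HoxC and 69.5 in HoxD. Runs of 2 bins without a listed cytosine lay at 52124001 to 52126000 in HoxA, 96145001 to 96147000 in HoxB and 102861001 to 102863000 in HoxC. In HoxD no 2 neighbouring bins were empty, and single ones lay at 74506001 to 74507000 and 74543001 to 74544000.

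**Figure D4:**
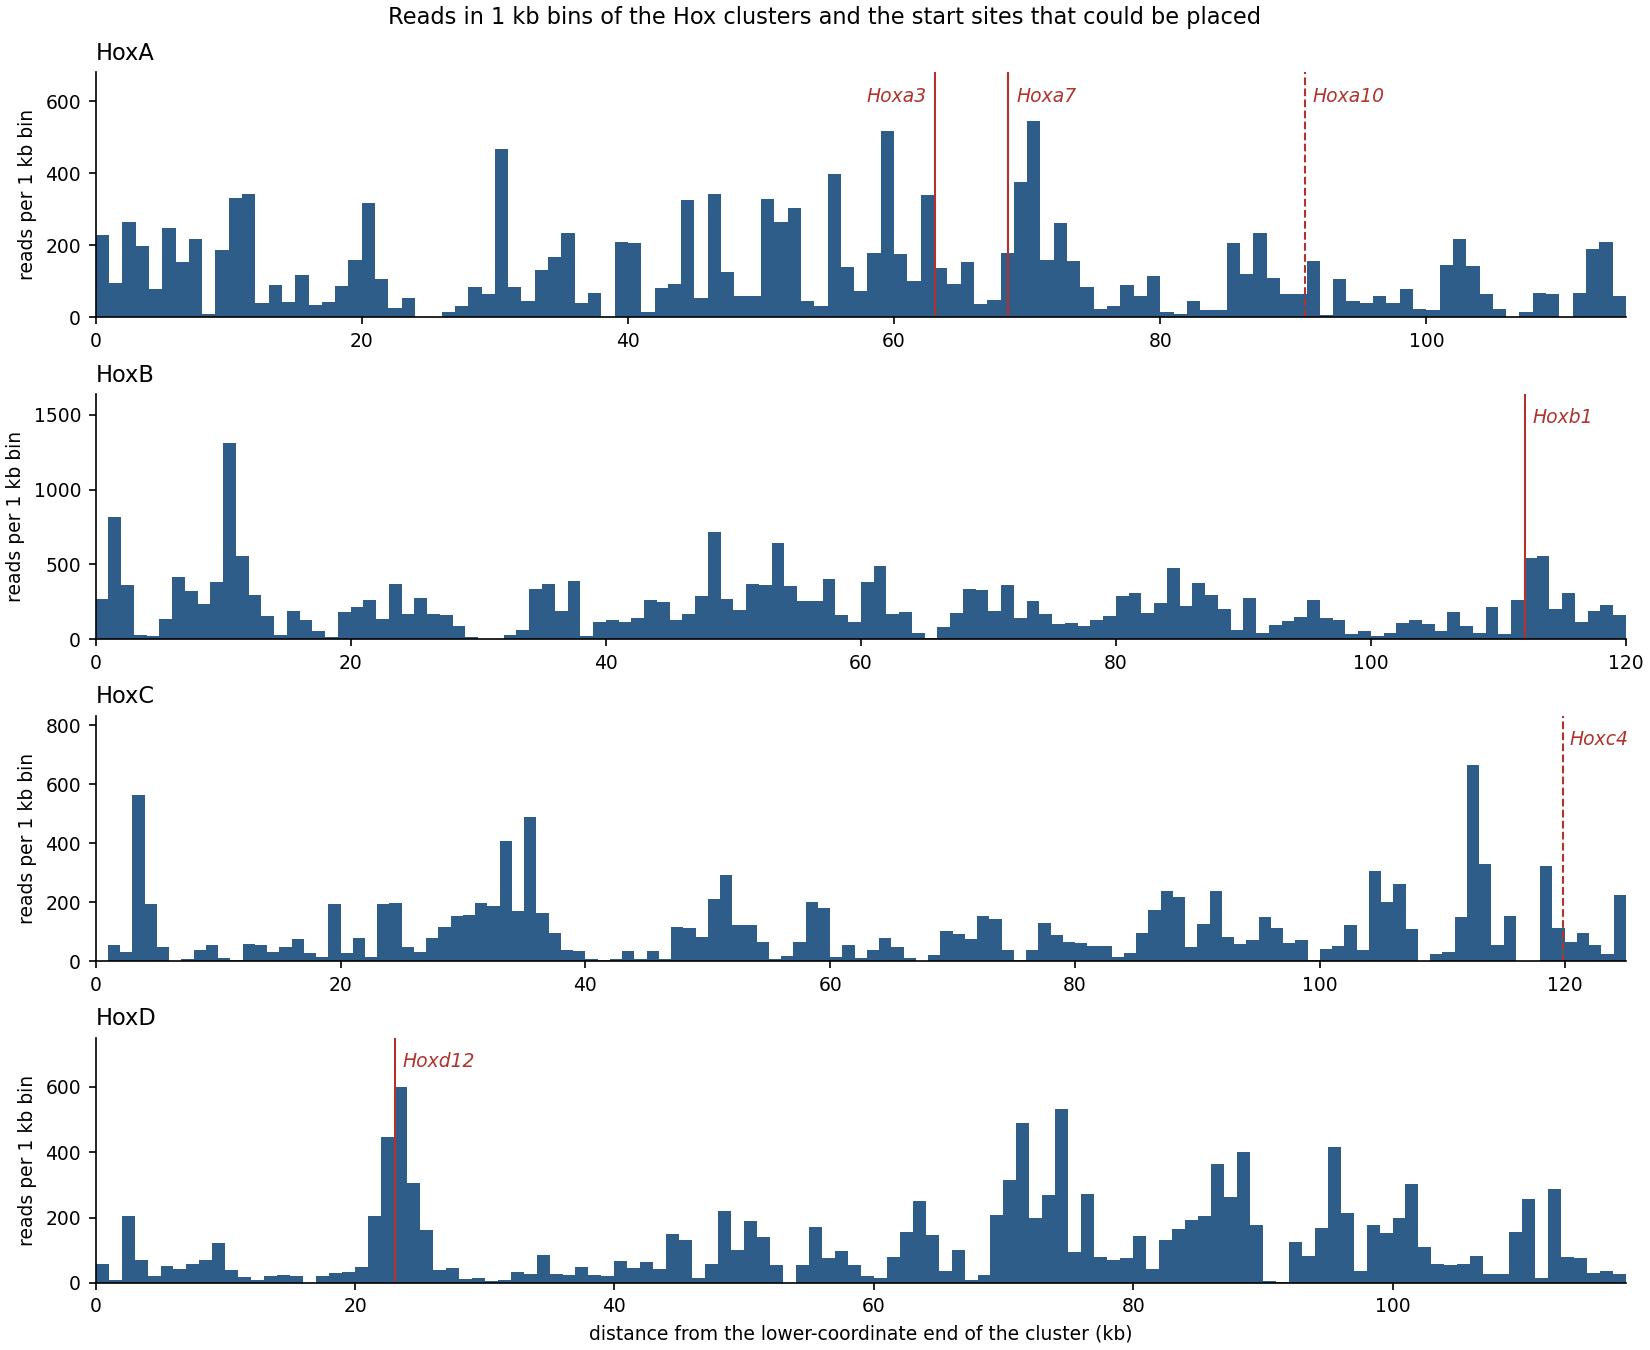
Reads in 1 kb bins along each Hox cluster, against the distance in kb from its lower-coordinate end, with red lines at the start sites placed by matching promoter letters to the listed cytosines (dashed: placed by the looser rule). The highest bin of HoxD, with 601 reads, holds the Hoxd12 start site, and the highest bin of HoxB, with 1311 reads, lies near the end opposite to Hoxb1.

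Single dyads held a small part of each cluster's reads. The dyad with the most reads in HoxB, at chromosome 11 from 96152024 to 96152025, had 163 reads, 75 plus and 88 minus. The next had 145 reads at 96125938, with 30 and 115 on the strands, and 112 at 96167340, with 51 and 61. In HoxA the first was at chromosome 6 position 52105790 with 133 reads, of which 108 were on the minus strand. The second, 52105769, had 108 reads on the plus strand alone, the same count as the minus strand of the first dyad nearby. Equal counts on opposite strands were also common among the 2CG pairs described above. Whether the same reads were listed at both dyads was not tested. The third, 52130731, had 82 reads. In HoxC the first was at chromosome 15 position 102778767 with 67 and 59 reads on the strands, followed by 102857708 with 80 reads and 102850876 with 79. In HoxD the first was at chromosome 2 position 74560221 with 52 and 39 reads, and 74540683 and 74564000 had 74 each. The highest single cytosine had 58 reads in HoxD, 67 in HoxC, 108 in HoxA and 115 in HoxB, against 288, 164, 286 and 374 in the respective flanks. The flanks of every cluster held more listed CG cytosines than the cluster, 6223 against 1291 for HoxD, and a maximum can rise with their number.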

How the data were processed

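Genomic DNA of E14 cells was profiled in 2 libraries of 1 group. Per the labels' protocols, 100 ng was glucosylated and cut with AbaSI, sheared to about 300 bp and amplified for 16 PCR cycles. CASAVA 1.8.2, Bowtie and the build mm9 are named in the submitters' processing notes. How reads were filtered, whether PCR copies were removed and how a read was assigned to a cytosine: not given in the sources used here. Whole-number read counts per cytosine, unscaled, were deposited by the authors in 1 column for both libraries, so no test between samples was possible. The table held 176006227 reads.

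Sites were taken as deposited, written in 1-based coordinates, and the plus and minus cytosine of each CG were counted as 1 dyad. Bins of 1 kb started at each cluster's lower end. Shares have exact Clopper-Pearson intervals at 95%, and ratios of counts have exact conditional intervals from the same method. Regions named in the text are the 3 bins and 3 dyads with the most reads, the longest run of empty bins and the longest gap of each cluster. The members, regions and comparisons were chosen with earlier results of these data known. Promoters were matched as described in the report, without an mm9 genome. Alternatives covered minimum reads, the 0.1% of sites with the most reads, the 2CG and 2CH classes, flank length and side, and bin size. Functions were tested on simulated sites. Python 3.11.15, numpy 2.4.6, pandas 2.3.3, scipy 1.17.1 and matplotlib 3.10.9 were used.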

Additional observations from a re-analysis of the deposited data

How the results depend on the processing

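Of 113 alternatives to 17 results, 55 stayed within the counting interval of the value (for the number of placed promoters, within 1.5 times), 56 moved outside it and 2 changed side. No paired analysis was possible because both libraries belong to 1 group and share 1 count column. For the same reason no library could be left out. In all 20 combinations of cluster and site setting, mean reads per CG cytosine and the share of dyads on both strands were below the flanks. For HoxD at a minimum of 10 reads, however, the shares were 23.1% and 23.5%. The 20 include the main setting without a filter. Leaving out the 0.1% of sites with the most reads did not change these 2 values in any cluster. The cause of the moves below was not tested.

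The 2 changes of side were in HoxB, where flanks of 250 kb gave 1.02 for reads per kb and sites with 10 or more reads gave 0.95 for dyads per kb. In the order HoxA, HoxB, HoxC and HoxD where 4 values are given, the other moves were these. At a minimum of 10 reads, the dyad ratio was 1.29, 1.20 and 1.56 in HoxA, HoxC and HoxD, the read ratio 1.08, 0.752, 1.03 and 1.35, bins without a site 18.3%, 7.50%, 23.2% and 23.7%, and dyads on both strands 21.3%, 33.0%, 19.6% and 23.1%. At a minimum of 5 reads, the dyad ratio was 1.15 in HoxB and 1.42 in HoxC, the read ratio 1.17, 0.816 and 1.14 in HoxA, HoxB and HoxC, and in HoxC bins without a site were 10.4% and dyads on both strands 27.6%. Without 2CG and 2CH, the dyad ratio was 1.39, 1.12 and 1.44 in HoxA, HoxB and HoxC, the read ratio 1.16, 0.790, 1.13 and 1.51, and dyads on both strands 37.6% in HoxB. With those reads at a weight of 0.5, the read ratio was 0.813 in HoxB and 1.15 in HoxC. Counting every cytosine gave 1.12 in HoxB and 1.44 in HoxC. Flanks of 250 kb gave dyad ratios of 1.31 in HoxB and 1.34 in HoxC and read ratios of 1.12, 1.09 and 1.55 in HoxA, HoxC and HoxD. Flanks of 1000 kb gave a dyad ratio of 1.68 in HoxC and read ratios of 1.15, 0.758 and 1.35 in HoxA, HoxB and HoxD. The lower-coordinate flank alone gave a dyad ratio of 2.20 in HoxD and read ratios of 0.820, 1.24 and 1.97 in HoxB, HoxC and HoxD, and the other flank 1.52 in HoxD and 0.843, 1.11 and 1.18. Bins of 2 kb gave 1.61% without a site in HoxC and 0% in HoxD, and bins of 500 bp 9.57%, 14.4% and 11% in HoxA, HoxC and HoxD.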
